A study of Homo sapiens with 30 samples.

Results

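The genes described are 10 that encode histone demethylases with a Jumonji C (JmjC) domain: KDM2A, KDM2B, KDM3A, KDM3B, KDM4A, KDM4B, KDM4C, KDM5A, KDM5B and KDM6B, out of 59792 genes in the RefSeq table used. They were listed by name as members of the enzyme family that the compound JIB-04 inhibits, and every peak inside such a gene or within 2 kb of it was taken, called or not. That gave 27 of the 21268 consensus peaks of H3K4me3, trimethylation of histone H3 at lysine 4, which marks active promoters. It gave 62 of the 63580 consensus peaks of H3K27ac, acetylation of lysine 27, which marks active promoters and enhancers. A consensus peak is a region of enriched signal from a list shared by all libraries of a mark. All data came from chromatin immunoprecipitation followed by sequencing (ChIP-seq) of OCI-Ly1, a line established from a human B-cell lymphoma.

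The cells had received JIB-04 at 150 nM, JIB-04 at 500 nM, or only the DMSO vehicle at 0.01%. Each mark and treatment had 2 libraries, so 12 of the 30 libraries of the series were used, while input, H3K9me2 and H3K9me3 libraries were not analysed here. How long the cells were treated is not given in the sources used here, nor whether the 2 libraries came from separate cultures, so p-values measure only the spread between libraries, which may be technical. Because all cells were of 1 line, a result stands for that line.

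JmjC demethylases use iron, oxygen and 2-oxoglutarate to oxidise methyl groups on histone lysines, which are then lost as formaldehyde. KDM2A and KDM2B act mainly on lysine 36 of histone H3, KDM3A and KDM3B on the lower methylation states of lysine 9, and the KDM4 enzymes on trimethylated lysine 9 and lysine 36. KDM5A and KDM5B remove methyl groups from lysine 4, the residue whose trimethylation was measured here, and KDM6B acts on lysine 27. The data bear on the chromatin of the genes that encode these enzymes, not on the enzymes' activity.

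RefSeq (GRCh38.p14) lists 16 promoter windows for the 10 genes, each running from 250 bases before to 50 bases after a transcription start. The windows are shown for KDM4B and KDM6B, whose start regions lost most H3K4me3, and for KDM5B, the only 1 of the 10 whose start peak rose past the test. Both windows of KDM6B are given because they differ in sequence. A window of KDM2A is given as a start with a small called fall (log2 fold change -0.10). Capitals mark the motif GGGCGG, the core of the GC box, in either orientation, and all are written 5′ to 3′ on the strand of the gene. They lie at chr19:4968863-4969162 (plus strand, KDM4B), chr17:7833967-7834266 (plus strand, first KDM6B window), chr17:7839667-7839966 (plus strand, second KDM6B window), chr1:202808372-202808671 (minus strand, KDM5B) and chr11:67119013-67119312 (plus strand, first KDM2A window).
KDM4B: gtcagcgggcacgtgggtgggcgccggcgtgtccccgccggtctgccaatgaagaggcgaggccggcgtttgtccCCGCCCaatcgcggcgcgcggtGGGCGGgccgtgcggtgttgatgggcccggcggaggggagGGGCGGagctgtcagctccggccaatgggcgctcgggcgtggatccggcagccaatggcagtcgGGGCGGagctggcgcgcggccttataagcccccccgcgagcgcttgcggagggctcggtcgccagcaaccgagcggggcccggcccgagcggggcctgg
KDM6B first window: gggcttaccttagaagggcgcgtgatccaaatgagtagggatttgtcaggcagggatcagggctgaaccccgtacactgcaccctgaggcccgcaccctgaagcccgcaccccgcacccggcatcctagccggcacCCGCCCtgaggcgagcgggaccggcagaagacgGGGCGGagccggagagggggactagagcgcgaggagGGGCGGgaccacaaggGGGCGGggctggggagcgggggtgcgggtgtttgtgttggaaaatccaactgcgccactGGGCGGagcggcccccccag
KDM6B second window: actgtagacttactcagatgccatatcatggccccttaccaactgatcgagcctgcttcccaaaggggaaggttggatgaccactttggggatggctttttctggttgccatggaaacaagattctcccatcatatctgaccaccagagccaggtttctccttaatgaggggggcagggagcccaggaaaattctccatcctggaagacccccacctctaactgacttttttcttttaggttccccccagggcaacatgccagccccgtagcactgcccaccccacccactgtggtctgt
KDM5B: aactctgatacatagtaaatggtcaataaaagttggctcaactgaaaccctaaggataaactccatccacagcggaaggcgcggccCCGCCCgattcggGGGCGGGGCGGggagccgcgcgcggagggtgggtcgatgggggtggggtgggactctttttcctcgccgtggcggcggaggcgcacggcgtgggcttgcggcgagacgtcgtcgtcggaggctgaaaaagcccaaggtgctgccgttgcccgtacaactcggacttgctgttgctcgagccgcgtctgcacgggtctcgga
KDM2A first window: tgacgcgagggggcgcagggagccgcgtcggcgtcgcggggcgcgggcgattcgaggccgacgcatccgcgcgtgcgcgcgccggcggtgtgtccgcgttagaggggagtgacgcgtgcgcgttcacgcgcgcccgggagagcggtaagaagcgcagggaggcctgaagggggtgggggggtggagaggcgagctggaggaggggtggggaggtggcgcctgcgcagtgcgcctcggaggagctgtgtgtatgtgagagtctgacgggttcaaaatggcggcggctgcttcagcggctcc

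The KDM4B window held 43 CG dinucleotides, 4 copies of GGGCGG and 4 of CCAAT, the CCAAT box. The first window of KDM6B held 24 CG and 5 copies of GGGCGG, whereas the second held 2 CG and no copy of it. KDM5B had 34 CG and 3 copies of GGGCGG, of which 2 overlap in the printed run, and the first KDM2A window had 44 CG and no copy. Of the windows not printed, the most downstream of KDM2B held 6 copies and that of KDM3B 3, while those of KDM4A and KDM4C held none. A link between motif and change was not tested. Over the 16 windows the number of CG ranged from 2 to 46 with a median of 26.5, against a median of 14 and quartiles of 4 and 28 over 35116 RefSeq promoters of the same 300 bases. GGGCGG was found in 11 of the 16 windows and in 45.0% of all promoters, both strands being searched, and CCAAT in 8 of 16 and in 34.6%. ACGTG, the core that hypoxia-inducible factors and E-box proteins can bind, was found in 3 of 16 and in 21.4%, and GCGTG in 12 of 16 and in 36.5%. All promoters were taken with or without a peak, whereas 15 of the 16 windows overlapped an H3K4me3 peak, so the sets are unlike. Windows of 1 gene also overlap in KDM3A, so these counts are a description.

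Of the 16 windows, 15 overlapped an H3K4me3 peak and 15 an H3K27ac peak. The second KDM6B window had no H3K4me3 peak over it, and KDM5B had no H3K27ac peak inside the gene or within 2 kb. The number of H3K4me3 peaks ran from 1 (KDM3A) to 6 (KDM2B), and that of H3K27ac peaks from 0 (KDM5B) to 16 (KDM2B and KDM4C). For each gene and mark the start peak was the peak with most reads among those over a promoter window. In KDM2A, KDM2B and KDM6B it lay over a different start for each mark: the first start of KDM2A and KDM6B for H3K4me3 and the second for H3K27ac, and the most downstream start of KDM2B for H3K4me3 and the most upstream for H3K27ac. Signal is given as CPM, the read count of a peak per 1000000 reads in tested peaks after scaling between libraries.

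In DMSO the order of H3K4me3 density at the start peaks, in CPM per kb, was led by KDM4C at 48.7 ± 0.58 and KDM5A at 47.7 ± 0.61 (SD, n = 2 libraries). KDM2A at 44.9 ± 1.6 and KDM3B at 44.4 ± 1.4 followed and overlapped each other, then came KDM4A at 35.2 ± 0.39. KDM2B at 31.3 ± 0.63 and KDM6B at 31.2 ± 0.97 overlapped, and KDM3A at 25.7 ± 0.024, KDM4B at 22.8 ± 0.17 and KDM5B at 20.2 ± 0.65 were lowest. KDM4B and KDM5B, with the sparsest H3K4me3, moved in opposite directions at 500 nM. For H3K27ac the order ran from KDM5A at 24.3 ± 1.5 CPM per kb through KDM4C at 22.8 ± 0.28 and KDM6B at 21.5 ± 0.43 to KDM3A at 13.3 ± 0.25. Between KDM6B and KDM3A, the neighbours KDM2A, KDM3B and KDM4A overlapped. KDM2B at 16.3 ± 1.1 lay above KDM3A in both libraries. KDM4B, from a 255 bp peak with 8.11 and 22.8 CPM per kb, spanned values from KDM3A to KDM4C, so its place is not settled.

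At 500 nM against DMSO, H3K4me3 fell at the start peaks of 6 of the 10 genes (KDM2A, KDM2B, KDM3A, KDM3B, KDM4B and KDM6B) and rose at that of KDM5B. KDM4B lost 45.5% of its signal and KDM6B 24.6%, whereas the other changes at start peaks were under 15%. The start peaks of KDM4A, KDM4C and KDM5A did not pass the test. Of the 6 falls at start peaks, 4 passed when libraries were scaled by total count and 3 with loess offsets, and none of the 7 called start peaks changed sign. In chromatin from a whole culture, fewer cells with the mark and less of the mark per cell cannot be told apart. Among the 16 other tested peaks of these genes 7 rose and 1 fell. In all, 15 of 26 tested peaks passed an adjusted p of 0.05, 8 higher and 7 lower, while 39.4% of all 20402 tested H3K4me3 peaks passed it, 20.7% higher and 18.7% lower. Among peaks over any RefSeq promoter window with an abundance at least that of the lowest of the 10 start peaks, 34.4% were called, 26.3% lower and 8.17% higher. The median log2 fold change of the 10 start peaks was -0.12 (-0.088 by total count and -0.065 by loess). It was -0.050 for those promoter peaks, a set with no upper limit of abundance. For all 10142 tested promoter-window peaks it was -0.03, with quartiles of -0.11 and 0.08. Scaling by the total count in peaks shifted the split among the 10 genes to 9 higher and 5 lower, and over all peaks from 4215 higher and 3819 lower to 4767 and 2791. The Wald test of DESeq2 called 3 of the 26 (the start peaks of KDM4B and KDM6B and an internal peak of KDM2B), and 3479 peaks in all where edgeR called 8034.

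**Figure D1:**
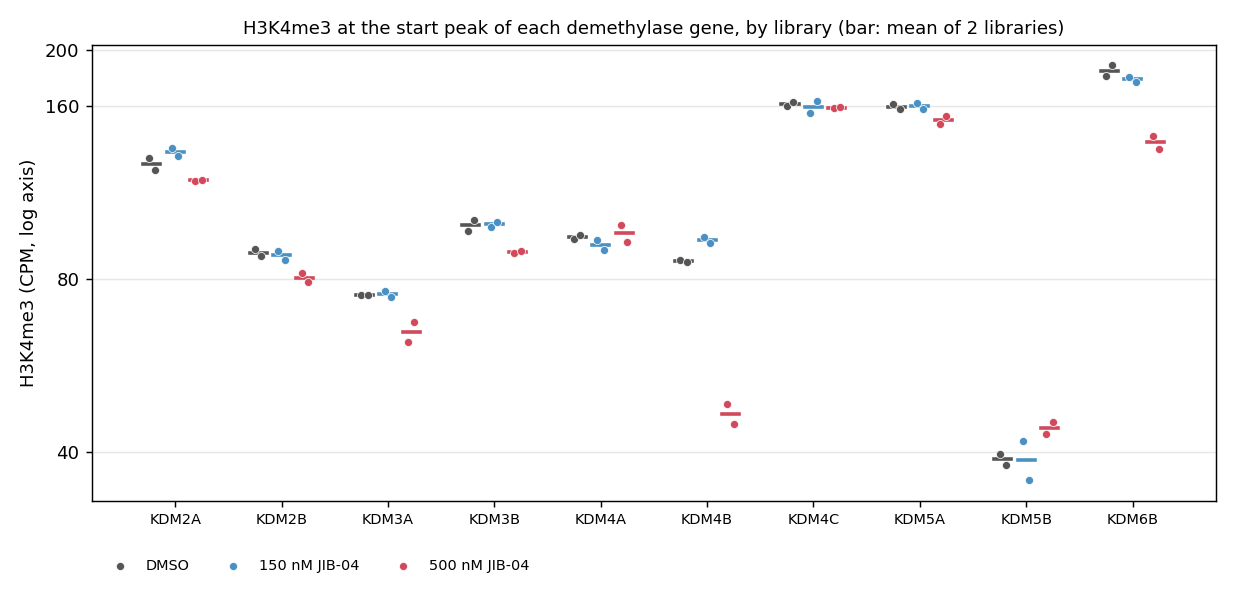
H3K4me3 at the start peak of each of the 10 genes in CPM on a log axis, with each point 1 library and each bar the mean of 2 libraries, for DMSO, 150 nM and 500 nM JIB-04. The 500 nM libraries of KDM4B (48.6 and 44.7 CPM) and KDM6B (142 and 135 CPM) sit clear of the other 4 libraries of each gene, and the groups of KDM4A and KDM4C lie close together.

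KDM4B removes trimethylation from lysine 9 of histone H3, the mark of heterochromatin. Its gene spans chr19:4969113-5153598 and its H3K4me3 start peak chr19:4968053-4971822 covers the printed window. That peak had 86.5 and 85.6 CPM in DMSO, 94.5 and 92.6 CPM at 150 nM, and 48.6 and 44.7 CPM at 500 nM. Both libraries at 500 nM lay far below the other 4, and those at 150 nM lay slightly above DMSO. At 500 nM its log2 fold change was -0.88 against DMSO (SE 0.052, adjusted p = 2.77e-21) and -0.998 against 150 nM (SE 0.052, adjusted p = 4.19e-24), the 2 comparisons sharing the 500 nM libraries. At 150 nM against DMSO it was 0.12 with an unadjusted p of 0.0086 and an adjusted p of 1.

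About 162 kb into KDM4B, far from its start, 2 short H3K4me3 peaks rose at 500 nM. The peak at chr19:5130837-5131529 had 1.96 and 1.57 CPM in DMSO, 1.97 and 1.95 CPM at 150 nM, and 3.23 and 4.8 CPM at 500 nM. Its log2 fold change against DMSO was 1.14 (SE 0.29, adjusted p = 0.000973), on 16 to 24 reads in DMSO and 38 to 47 reads at 500 nM. The neighbouring peak at chr19:5131807-5132304 had a log2 fold change of 1.02 (SE 0.41, adjusted p = 0.039), a call lost under 8 of 14 other settings, among them leaving out DMSO replicate 2, either 150 nM library or 500 nM replicate 2. The start peak held 97 ± 0.97% of the summed H3K4me3 CPM of KDM4B in DMSO and 88.5 ± 3.2% at 500 nM (SD, n = 2).

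H3K27ac at KDM4B was lowest at 500 nM too, in a peak that lies upstream of the start at chr19:4966686-4968629 and overlaps the H3K4me3 peak by 577 bp. It had 37.7 and 47.7 CPM in DMSO, 29.1 and 39.0 CPM at 150 nM, and 22.2 and 26.2 CPM at 500 nM. The 500 nM libraries lay below all others, while the 150 nM and DMSO libraries overlapped, replicate 2 being the higher in both groups. At 500 nM the H3K27ac log2 fold change was -0.83 against DMSO (SE 0.15, adjusted p = 0.000953), and -0.50 against 150 nM (adjusted p = 0.125). It was the 1 peak called among the 48 tested H3K27ac peaks of the 10 genes, where 0.923% of all 54037 tested H3K27ac peaks were called, 0.231% as lower. The call was lost with DESeq2 and on leaving out DMSO replicate 2 or 500 nM replicate 1, with an adjusted p of up to 0.249. Of the H3K27ac counts, a share of 0.315% and 0.239% in the DMSO replicates, 0.254% and 0.206% in the 150 nM replicates and 0.425% and 0.464% in the 500 nM replicates lay on contigs outside the chromosomes. With a term that set DMSO replicate 2 and 150 nM replicate 2 apart from the other 4 libraries, the log2 fold change was -0.62 (adjusted p = 0.00564). That split was chosen from these data and is not clear-cut. The share of 150 nM replicate 1 (0.254%) lay closer to that of DMSO replicate 2 (0.239%) than to that of DMSO replicate 1 (0.315%). A short H3K27ac peak over the window itself, 255 bp long, had 2.07 and 5.82 CPM in DMSO and 2.26 and 4.11 CPM at 500 nM and was not called (log2 fold change -0.34, SE 0.42).

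Peaks of other genes that followed the KDM4B start peak most closely over the 6 H3K4me3 libraries were those at RPP25, a subunit of ribonuclease P (Pearson r = 0.999), at COMMD8 and LOC107986277 (r = 0.998) and at CFAP251, a cilium protein (r = 0.998). Their log2 fold changes at 500 nM against DMSO were smaller, at -0.22, -0.20 and -0.41. Since the libraries share 3 treatments, 120 of the 10141 promoter-window peaks compared had r over 0.99, so the likeness is a description.

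**Figure D2:**
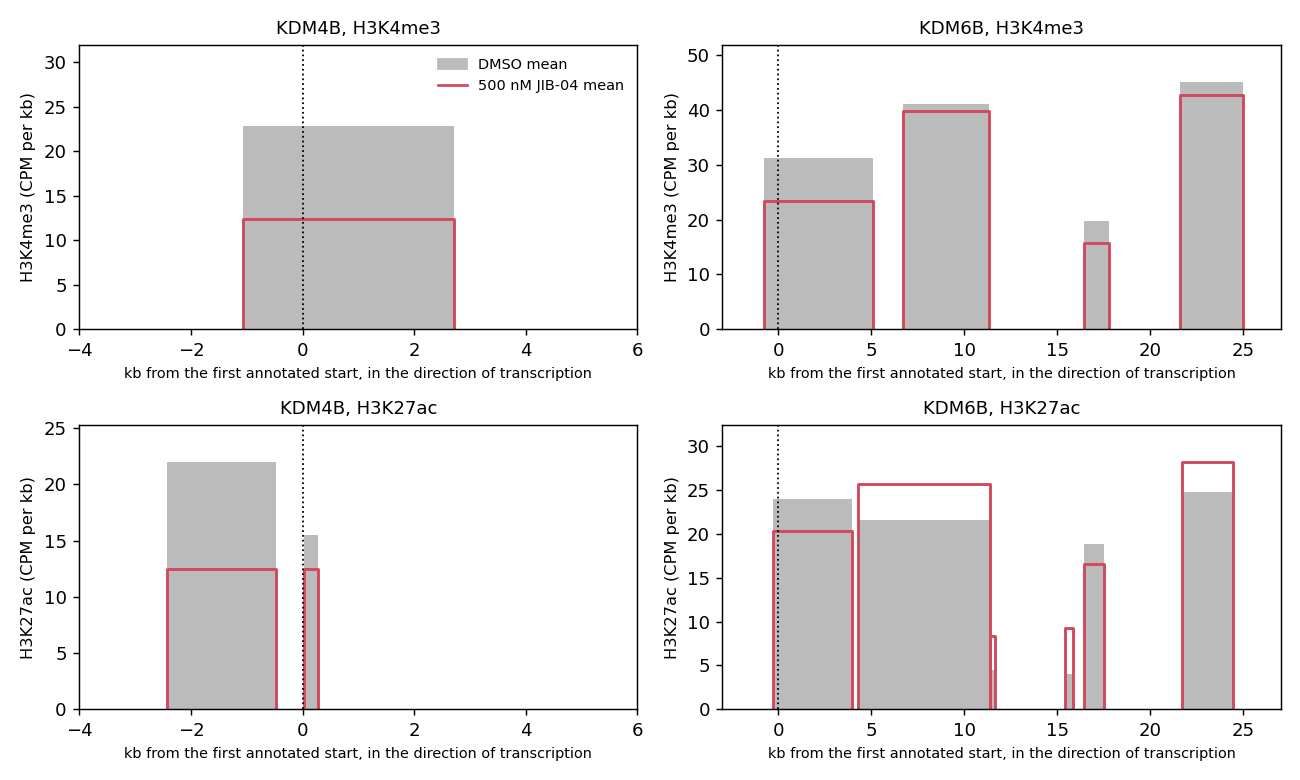
Mean density of H3K4me3 (top) and H3K27ac (bottom) in CPM per kb over each peak near the KDM4B start (left) and over the whole of KDM6B (right), against distance in kb from the first annotated start, shown dotted. Grey blocks are the DMSO mean and red outlines the 500 nM mean of 2 libraries, over the authors' peak lengths. Both marks were lower near the start of KDM4B, whereas in KDM6B H3K4me3 was lower in the start peak and the third peak.

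The other KDM4 genes encode enzymes of the same specificity and did not share the fall at KDM4B. The start peak of KDM4A (chr1:43649261-43651952) had 93.9 and 95.4 CPM in DMSO, 93.5 and 89.9 CPM at 150 nM, and 99.5 and 92.8 CPM at 500 nM. These groups overlapped, and 500 nM differed from DMSO by a log2 fold change of 0.03 (SE 0.044, adjusted p = 0.647). KDM4C (chr9:6756746-6760054) had 160 and 162 CPM in DMSO, 155 and 163 CPM at 150 nM, and 158 and 159 CPM at 500 nM. Its libraries all lay within a narrow band, with a log2 fold change of -0.02 (SE 0.035, adjusted p = 0.678) whose sign changed with the scaling. A faint peak inside the KDM4C annotation but 7 kb before its windowed start, chr9:6750602-6750909, rose from 2 and 5 reads in DMSO to 13 and 10 reads at 500 nM (log2 fold change 1.73, SE 0.58, adjusted p = 0.0142), and this call was lost under 4 of 14 other settings, including without DMSO replicate 1 and without 500 nM replicate 1. The peak just downstream of KDM4A lies over the windows of KDM4A-AS1 and ST3GAL3, so its signal cannot be assigned to 1 gene, and it had a log2 fold change of -0.07 (adjusted p = 0.167).

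KDM3A and KDM3B, which act on mono- and dimethylated lysine 9, each lost a little H3K4me3 at the start. KDM3A (chr2:86440458-86443379) had 75 and 75.1 CPM in DMSO, 76.3 and 74.4 CPM at 150 nM, and 62.2 and 67.4 CPM at 500 nM. The log2 fold change was -0.22 (SE 0.050, adjusted p = 0.000382) against DMSO, and the 500 nM libraries lay below the other 4. KDM3B (chr5:138352523-138354755) had 97 and 101 CPM in DMSO, 98.6 and 101 CPM at 150 nM, and 88.8 and 89.7 CPM at 500 nM, with a log2 fold change of -0.15 (SE 0.043, adjusted p = 0.0041). The KDM3A call was lost without 500 nM replicate 1 and the KDM3B call without DMSO replicate 2 and with loess offsets. Downstream of KDM3B a peak over the REEP2 window, and so possibly of that gene, rose by 0.27 on the log2 scale (SE 0.098, adjusted p = 0.0254), lost with loess offsets, without either DMSO library and without 500 nM replicate 1.

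KDM6B, also called JMJD3, removes methyl groups from lysine 27 and is induced by inflammatory signals in macrophages. It is compact (chr17:7834217-7854796) and was covered by 15.3 kb of H3K4me3 peaks and 15.9 kb of H3K27ac peaks, counting those within 2 kb. Its start peak, chr17:7833433-7839332, is 5900 bp long and also overlaps the annotations of DNAH2 and LOC124904106. It had 180 and 188 CPM in DMSO, 180 and 176 CPM at 150 nM, and 142 and 135 CPM at 500 nM. The 500 nM libraries lay below the other 4, and the log2 fold change was -0.41 against DMSO (SE 0.036, adjusted p = 1.62e-14) and -0.36 against 150 nM (SE 0.036, adjusted p = 1.75e-12).

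Not every H3K4me3 peak along KDM6B was called as lower. The next peak, chr17:7840937-7845561, begins about 1 kb after the second start and had 189 and 191 CPM in DMSO and 180 and 188 CPM at 500 nM, a log2 fold change of -0.05 that did not pass the test (SE 0.033, adjusted p = 0.257). The third, chr17:7850642-7851999, had 28.4 and 25.2 CPM in DMSO, 28.6 and 32.1 CPM at 150 nM, and 20.8 and 21.9 CPM at 500 nM, and fell (log2 fold change -0.34, SE 0.089, adjusted p = 0.00146), a call lost without DMSO replicate 1. The last, over the NAA38 window, had a log2 fold change of -0.08 against DMSO (adjusted p = 0.0815). The second peak also lies over the window of LOC124904106 and the third over that of LOC107987244, so their signal cannot be assigned to 1 gene. The difference between the first and second peaks was not tested.

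H3K27ac summed over the KDM6B peaks was 346 ± 13 CPM in DMSO and 370.4 ± 12 CPM at 500 nM (SD, n = 2), beside 555.5 ± 2.3 and 490.2 ± 1.7 CPM of H3K4me3. These sums include the downstream peaks over the NAA38 window, with means of 68.7 CPM of H3K27ac and 154 CPM of H3K4me3 in DMSO. The H3K27ac peak with most reads, chr17:7838513-7845605, is 7093 bp long and covers the second window, and it also lies over that of LOC124904106. It had 150 and 155 CPM in DMSO, 124 and 152 CPM at 150 nM, and 179 and 185 CPM at 500 nM. The 500 nM libraries were the highest, and against 150 nM the log2 fold change was 0.40 (SE 0.093, adjusted p = 0.0119), the 1 call among 48 tested peaks in that comparison, where 1.27% of all peaks were called, 1.09% as higher. That call was lost without either 500 nM library, with the 4 libraries of the contrast alone and with DESeq2. Against DMSO the change was 0.26 (adjusted p = 0.22). It was 0.34 (adjusted p = 0.00376) with the term setting DMSO replicate 2 and 150 nM replicate 2 apart, a split chosen from these data. The peak over the first window, chr17:7833929-7838175, had 98.6 and 105 CPM in DMSO and 83.5 and 88.8 CPM at 500 nM, a log2 fold change of -0.24 (adjusted p = 0.332).

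KDM2A and KDM2B demethylate lysine 36 and carry a zinc finger that binds unmethylated CG. KDM2B (chr12:121408461-121582279, minus strand) held the rise with the smallest adjusted p of the 10 genes, in an internal peak 41 kb from the nearest windowed start. That peak, chr12:121535270-121538504, had 89.3 and 86.4 CPM in DMSO, 88.5 and 89.0 CPM at 150 nM, and 105 and 104 CPM at 500 nM. The 500 nM libraries were above the other 4, with a log2 fold change of 0.25 against DMSO (SE 0.043, adjusted p = 2.26e-06) and 0.24 against 150 nM (adjusted p = 6.3e-06). Its overlapping H3K27ac peak had 51.7 and 52.1 CPM in DMSO and 61.0 and 66.9 CPM at 500 nM but did not pass the test (log2 fold change 0.30, SE 0.12, adjusted p = 0.278).

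At its starts KDM2B had negative values, not all of which passed the test against DMSO. The start peak with most reads, chr12:121465525-121468363, lies over the most downstream of its 4 windows and had 90.2 and 87.7 CPM in DMSO, 89.5 and 86.5 CPM at 150 nM, and 82.0 and 78.9 CPM at 500 nM. It fell by 0.14 on the log2 scale (SE 0.046, adjusted p = 0.00875), a call lost under total-count and loess scaling, with DESeq2, and without DMSO replicate 1 or 500 nM replicate 2. The peak over the other 3 windows and over KDM2B-DT had a log2 fold change of -0.12 against DMSO (adjusted p = 0.0809) and fell by 0.19 against 150 nM (adjusted p = 0.00646). The latter call was lost with DESeq2 and without 150 nM replicate 1 or 500 nM replicate 1, with an adjusted p of up to 0.193. The share of the gene's summed H3K4me3 CPM in the start peak was 37.2 ± 0.17% in DMSO and 32.9 ± 0.58% at 500 nM (SD, n = 2).

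KDM2A had small changes in both directions. Its start peak (chr11:67119136-67121960) had 130 and 124 CPM in DMSO, 135 and 131 CPM at 150 nM, and 119 and 119 CPM at 500 nM, a log2 fold change of -0.10 (SE 0.039, adjusted p = 0.0379). The 500 nM libraries lay below the others, but the call held under 8 of 15 other settings only and was lost without DMSO replicate 1 and without either 500 nM library. A separate peak upstream, over the window of LOC107984341, rose from 29.5 and 31.6 CPM to 36.8 and 34.7 CPM (log2 fold change 0.24, SE 0.074, adjusted p = 0.00863), lost without DMSO replicate 1 or 500 nM replicate 1. The peak over the second, internal start had a log2 fold change of 0.07 (adjusted p = 0.182).

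KDM5A and KDM5B, the erasers of the mark measured, differed in what was called. The KDM5A start peak (chr12:386992-390332), shared with the window of CCDC77, had 161 and 158 CPM in DMSO, 162 and 158 CPM at 150 nM, and 149 and 154 CPM at 500 nM. Its log2 fold change of -0.08 (SE 0.035, adjusted p = 0.0633) did not pass the test. The KDM5B start peak (chr1:202806884-202808804) had 39.8 and 38.0 CPM in DMSO, 41.8 and 35.8 CPM at 150 nM, and 43.0 and 45.2 CPM at 500 nM. It rose by 0.18 on the log2 scale (SE 0.067, adjusted p = 0.0312), with 500 nM above the other libraries. Upstream, a peak over the window of PCAT6, a long noncoding RNA gene, rose from 47.1 and 46.9 CPM to 52.9 and 52.9 CPM (log2 fold change 0.17, SE 0.058, adjusted p = 0.0179). Both KDM5B calls were lost with DESeq2 and without either DMSO library or 500 nM replicate 2, the upstream one also without 500 nM replicate 1. The difference between KDM5A and KDM5B was not tested.

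**Figure D3:**
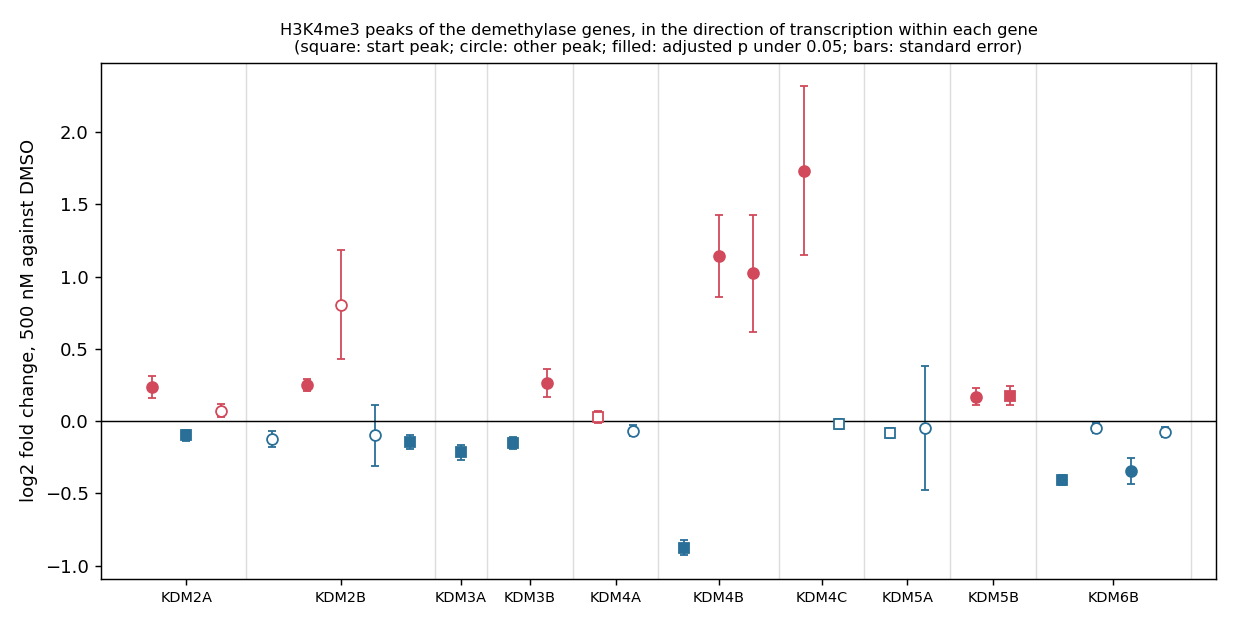
Log2 fold change of H3K4me3 at 500 nM against DMSO for the 26 tested peaks, in the direction of transcription within each gene, with standard errors. Squares are start peaks, circles other peaks, and filled symbols passed an adjusted p of 0.05: 6 filled squares lie below 0 and 1 above, and the rises over 1 belong to faint peaks of KDM4B and KDM4C.

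At 150 nM against DMSO, edgeR called none of the 26 H3K4me3 peaks of the 10 genes and 0% of all tested peaks, and DESeq2 called none of either. An unadjusted p under 0.05 was found for 2 of the 26 and for 950 of all 20402. The largest departure at a start peak was that of KDM4B given above, upward. For H3K27ac, edgeR called none of the 48 peaks at this dose against 0.00185% of all, DESeq2 called none, and an unadjusted p under 0.05 was found for 2 of the 48 and for 2128 of all 54037.

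At 500 nM against 150 nM, which shares its 500 nM libraries with the comparison against DMSO, 15 of the 26 H3K4me3 peaks were called, 6 higher and 9 lower, where 39.2% of all were called, 20.5% higher and 18.6% lower. At the start peaks the log2 fold changes were -0.16 for KDM2A, -0.13 for KDM2B, -0.22 for KDM3A, -0.16 for KDM3B and 0.18 for KDM5B, beside -0.10, -0.14, -0.22, -0.15 and 0.18 against DMSO. In KDM6B the third peak had -0.51 (adjusted p = 2.58e-06), beside -0.34 against DMSO, and its last peak -0.09 (adjusted p = 0.0437), a call that held under 7 of 15 other settings.

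H3K27ac at the start peaks of the other genes did not pass the test in any comparison. KDM5A had 60.5 and 55.6 CPM in DMSO and 66.9 and 75.1 CPM at 500 nM, a log2 fold change of 0.29 (SE 0.12, adjusted p = 0.279). KDM2B, at its most upstream start, had 24.6 and 22.3 CPM in DMSO and 17.5 and 18.0 CPM at 500 nM, a log2 fold change of -0.40 (SE 0.17, adjusted p = 0.338). In both genes the 500 nM and DMSO libraries did not overlap, but the test over all peaks did not separate them. Nor did they overlap at the H3K27ac start peaks of KDM2A, KDM3A, KDM4A, KDM4C and KDM6B, where 500 nM was higher. Only at those of KDM3B and KDM4B did they overlap, so the lack of overlap does not set KDM5A and KDM2B apart. Its share over all peaks was not counted. KDM2A, KDM3A, KDM3B, KDM4A and KDM4C had log2 fold changes of 0.16, 0.16, 0.02, 0.11 and 0.08. The KDM2A value belongs to its second, internal start. At the first start, where H3K4me3 fell, H3K27ac had 40.9 and 39.7 CPM in DMSO and 35.2 and 30.5 CPM at 500 nM, a log2 fold change of -0.29 (SE 0.14, unadjusted p = 0.0401, adjusted p = 0.406). At the downstream start of KDM2B, where H3K4me3 fell, a 447 bp H3K27ac peak had a log2 fold change of -0.086 (SE 0.30, adjusted p = 0.951). A larger H3K27ac peak beside it, 1706 bp long, had a mean of 21.0 CPM in DMSO and 22.2 CPM at 500 nM. Its log2 fold change was 0.065 (SE 0.18, adjusted p = 0.932). Of the 48 tested peaks, 12 had an unadjusted p under 0.05 against DMSO, as did 6208 of all 54037, and the largest of the uncalled values was 1.18 in a short internal peak of KDM6B. The 14 untested H3K27ac peaks, 208 to 280 bp long with at most 17 reads in a library, lay in KDM3A, KDM4B, KDM4C, KDM5A and KDM6B, and the 1 untested H3K4me3 peak was in KDM2B.

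**Figure D4:**
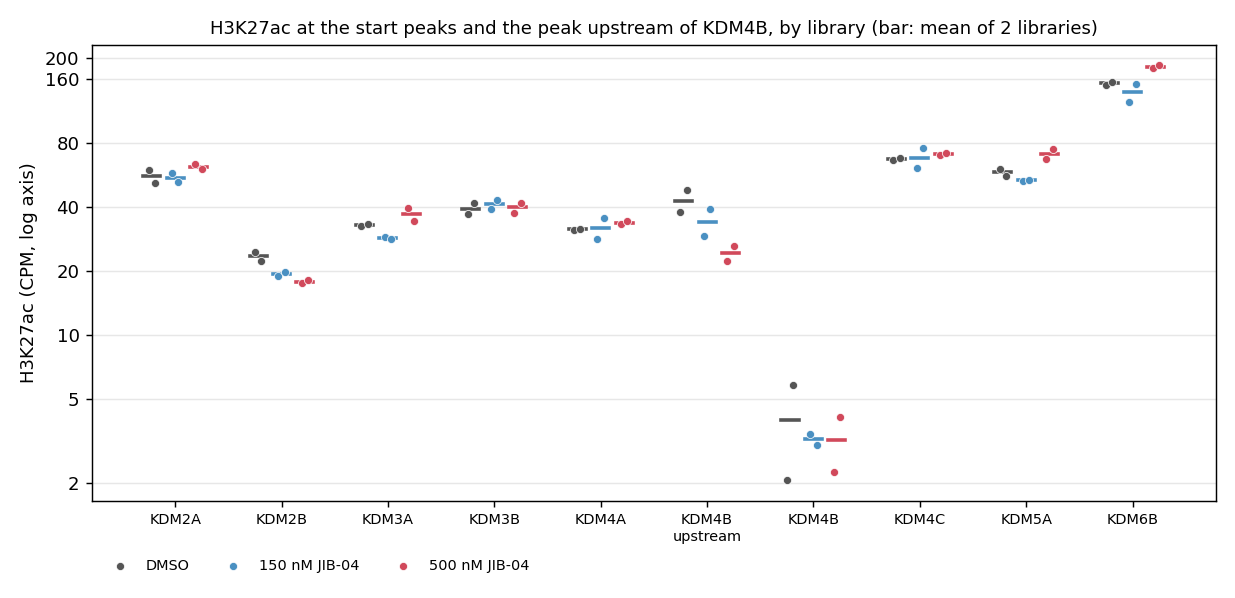
H3K27ac in CPM on a log axis at the start peaks of the 9 genes that had one and at the peak upstream of KDM4B, with each point 1 library and each bar the mean of 2. The upstream KDM4B peak had 22.2 and 26.2 CPM at 500 nM, below both DMSO libraries, and the KDM6B peak had its highest values at 500 nM.

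Each tested H3K4me3 peak was paired with the tested H3K27ac peak that overlapped it most, which gave 21 pairs. Of these, 12 had the same sign of change at 500 nM against DMSO. Further overlaps were not counted, such as that of the KDM6B start peak (-0.41) with the H3K27ac peak over the second window (0.26). The same share over all peaks was not computed, so the count is a description. The KDM4B start region was lower in both marks, at -0.88 and -0.83, and the upstream KDM2A and internal KDM2B regions had positive values in both. KDM3A was lower in H3K4me3 and had a positive H3K27ac value of 0.16 that did not pass the test.

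Start peaks of other chromatin regulators were counted in the same way at 500 nM against DMSO. For each list the H3K4me3 counts stand beside promoter peaks at least as abundant as the lowest of the 10 start peaks. Of those, 26.3% fell and 8.17% rose. That floor was set on the 10 genes and not on these lists. Of 15 further JmjC genes, 10 had a window and a start peak. Among them H3K4me3 fell at KDM5C, KDM6A and KDM7A and rose at PHF2, with a median log2 fold change of -0.09, and 2 falls passed under total-count and under loess scaling. KDM6A, the paralogue of KDM6B, fell by 0.22 (adjusted p = 8.07e-06), and PHF2 rose by 0.23 (adjusted p = 0.0004). Of 9 measured genes of H3K4 methyltransferase complexes, KMT2C, KMT2D and RBBP5 fell and none rose (median -0.08). By total count and by loess 1 fall passed in this list, with medians of -0.043 and -0.013. Of 11 H3K9 methyltransferases and readers, SUV39H1, SETDB2 and CBX1 fell and SUV39H2 rose (median -0.07). The balance of that list turned with the scaling, to 2 higher and 2 lower by total count and 3 higher and 1 lower by loess. None of the 6 genes of the H3K27 methyltransferase complex passed (median -0.02), but 1 passed as higher by total count and by loess, where the median was 0.013 and 0.019. Neither flavin-dependent demethylase (KDM1A and KDM1B, median -0.07) passed, nor did either acetylase (EP300 and CREBBP, median -0.10). Of 4 H3K36 methyltransferases ASH1L fell (median -0.05), whereas by loess none passed and the median was 0.020. No gene called above changed sign under the other scalings. At H3K27ac none of these genes was called at 500 nM against DMSO. Only 0.709% of all tested H3K27ac promoter-window peaks were called, so the lack of calls does not set these genes apart. The lowest H3K4me3 value in these further lists was -0.24, at SETDB2, so none reached the -0.88 of KDM4B.

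**Figure D5:**
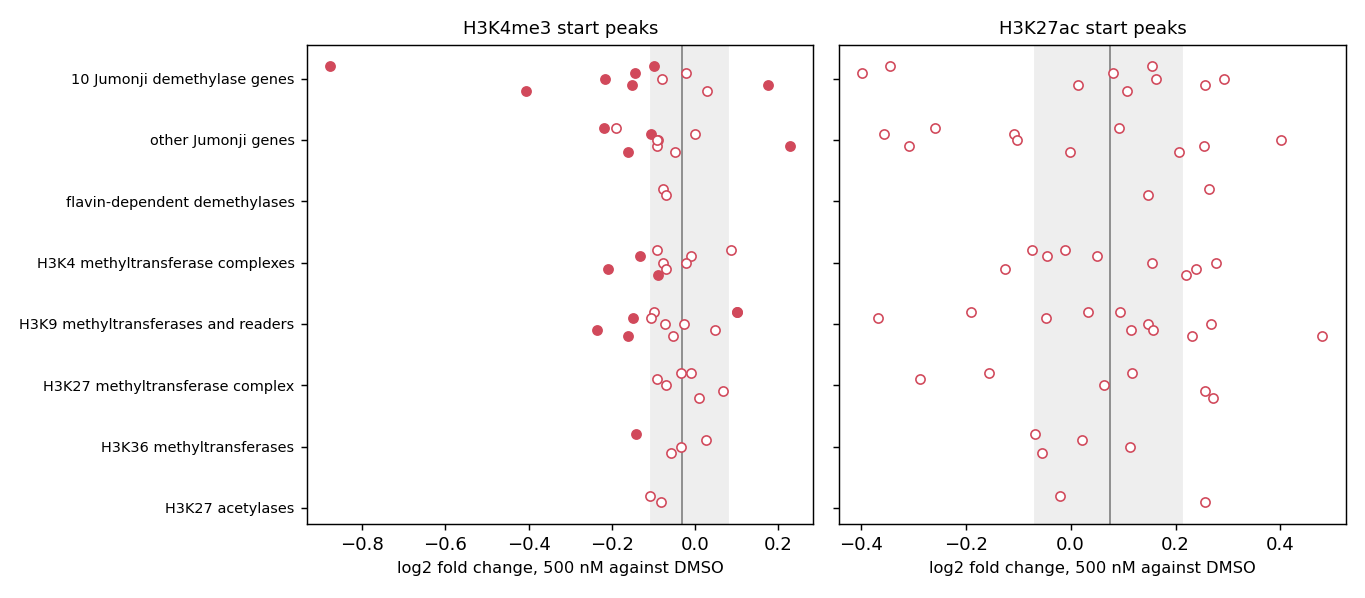
Log2 fold change at 500 nM against DMSO of the start peaks of the 10 genes and of 7 other lists of chromatin regulators, for H3K4me3 (left) and H3K27ac (right), each point 1 gene, filled where the adjusted p was under 0.05. The line and band are the median and quartiles of all tested promoter-window peaks (-0.03, -0.11 and 0.08 for H3K4me3), and KDM4B and KDM6B lie furthest to the left of the H3K4me3 panel.

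The depth behind these values was 9686420 to 12327122 counts in peaks per H3K4me3 library and 4360660 to 5410292 per H3K27ac library. Replicates differed little beyond counting noise (chi-square per degree of freedom 1.11 in DMSO and 1.21 at 500 nM for H3K4me3). The 150 nM H3K4me3 pair differed by less than sampling noise (0.941), as did DMSO replicate 1 and 150 nM replicate 1 (0.964), which carry different labels, so the pair was kept as 2 libraries. Summed to 1 sample, it gave 14 calls among the 10 genes at 500 nM against DMSO. For H3K27ac the value ran from 1.28 at 500 nM to 2.2 at 150 nM. The line's labelled origin was checked on B-cell markers: the 4 with a promoter window, CD79A, PAX5, BCL6 and CD22, had peaks of both marks, at 112 to 481 CPM of H3K4me3 and 52.7 to 197 CPM of H3K27ac in DMSO. Of the T-cell markers, CD8A had peaks of 33.0 CPM of H3K4me3 and 48.3 CPM of H3K27ac, the latter close to the lowest of the B-cell markers. CD3D had 8.58 and 1.69 CPM, and CD2 had no peak of either mark. The myeloid marker CD14 had 10.7 CPM of H3K4me3 and no H3K27ac peak, and no peak lay over the windows of CSF1R, KRT8, GATA1 or ALAS2.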

How the data were processed

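ChIP-seq libraries of OCI-Ly1 were grouped by mark, treatment and dose from their titles. The deposited counts per consensus peak are not normalized and were made with featureCounts 2.0.1 per the file headers, without regard to strand, counting a read in every peak that holds a fraction of 0.2 of it. The submitters' processing notes name Trim Galore 0.6.7, BWA 0.7.17-r1188, Picard 2.27.4, MACS2 2.2.7.1, deepTools 3.5.1, edgeR 3.42.4 and GRCh38. Headers give the option for paired reads and the labels single reads, so what was counted, reads or fragments, is unclear. How the consensus was made is not given in the sources used here, and exons and introns were not used.

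Per mark, 1 edgeR 4.0.16 quasi-likelihood fit in R 4.3.3 took all 6 libraries with treatment as factor, filterByExpr, TMM and Benjamini-Hochberg adjustment at 0.05 over all tested peaks. CPM is relative to reads in tested peaks and does not show a change common to all peaks. Standard errors came from the F statistic. The deposited starts count from 0, so 1 was added. Positions of genes and promoter sequences are from RefSeq, GRCh38.p14. The edgeR step was tested on simulated data.

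The 10 genes and all lists were chosen with earlier results of these data known. Named were every start peak, every called peak and the longest other peak per mark. Alternatives were other scalings, filters, thresholds, gene margins, DESeq2 1.42.0, a block, a term setting DMSO replicate 2 and 150 nM replicate 2 of H3K27ac apart, from earlier results on their contig reads, fewer libraries and, chosen after seeing the data, the summed 150 nM pair. Counts without molecular identifiers are not independent molecules, and the 2 libraries per group limit precision. Same-numbered libraries did not deviate together throughout, so the numbers were not used to pair them.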

Additional observations from a re-analysis of the deposited data

How the results depend on the processing

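Of 32 called single-peak results, 7 passed an adjusted p of 0.05 under all 15 other fits run for them (KDM4B and KDM6B start peaks and the internal KDM2B peak in both 500 nM comparisons, and the third KDM6B peak against 150 nM), and none of the 32 changed sign. None of the 7 had an absolute log2 fold change of at least 1. For H3K4me3 at 500 nM against DMSO, 15 calls became 3 with DESeq2, 9 at an adjusted p of 0.01, 3 at an absolute log2 fold change of at least 1, and 7 to 14 on leaving out 1 library, 7 without DMSO replicate 1. Against 150 nM, 15 became 4 with DESeq2, 3 at that fold change and 10 to 16 on leaving out 1 library. For H3K27ac against DMSO, 1 call became 4 with the 4 libraries of the contrast, 3 with the term setting 2 libraries apart (the split term), and 0 with DESeq2, at that fold change or within the gene itself, and 0 to 3 on leaving out 1 library (0 for DMSO replicate 2 or 500 nM replicate 1, 2 or 3 for a 150 nM library). Against 150 nM, 1 became 3 with the replicate block, 2 with the split term, and 0 with the 4 libraries of the contrast, DESeq2, the adjusted p of 0.01 or the fold change, and 0 to 3 on leaving out 1 library (0 for either 500 nM library, 2 or 3 for a 150 nM library). At 150 nM against DMSO every alternative called 0.

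Of the uncalled start values, KDM4C H3K4me3 became 0.014 by total count, 0.048 by loess and 0.0023 at a mean count of at least 50, and the second KDM6B peak 0.025 by loess. KDM3B H3K27ac became -0.0100 by loess, and KDM4B H3K27ac 0.044 with the split term. On leaving out 1 library, KDM4A H3K4me3 ranged from -0.029 to 0.070, KDM3B H3K27ac from -0.073 to 0.11 and KDM4B H3K27ac from -0.88 to 0.61, the last without DMSO replicate 2. The cause was not tested. With the replicate block, H3K4me3 calls were 15 against DMSO and 16 against 150 nM, and H3K27ac calls 1 and 3. Deviations of same-numbered libraries correlated at 0.0047 to 0.049 for H3K4me3, highest between DMSO and 500 nM. For H3K27ac they correlated at 0.0026 to 0.13, highest between DMSO and 150 nM. Over all H3K27ac peaks the block raised the calls at 500 nM from 499 to 1150 against DMSO. Against 150 nM it raised them from 687 to 1186. Whether same-numbered libraries were prepared together is not given in the sources used here. Faint peaks are limited by depth.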
